A study of Mus musculus with 6 samples.

Results

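The genes described here are 8 transcripts of the B cell lineage in mouse kidney glomeruli, the capillary tufts that filter the blood. They were Ighv14-2, Ighm, Jchain, Cd79a, Cd79b, Ms4a1, Mzb1 and Pou2af1, and they were read by 19 of the 45101 probe sets of the Affymetrix Mouse Genome 430 2.0 array. A probe set is a group of short oligonucleotides directed at one transcript, and each of the 19 was assigned by the array annotation to a single gene, as were 34958 probe sets for 18194 genes in all. The genes were chosen by their cell type and with the knockout and control values of these same arrays in view, so their differences between the groups are given as a description. The fit over the whole array includes them, but nothing is read from a test of these genes between the groups.

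The arrays compared dendrin knockout mice (n = 3) with wild-type littermate controls (n = 3), all aged 13 months, to ask how loss of dendrin, a podocyte protein of the slit diaphragm, changes gene expression in the glomerulus. In the knockout the whole coding sequence of dendrin was exchanged for a cassette with eGFP and a neomycin resistance gene, so the gene was lost in every cell of the body and not only in podocytes. Both groups are labelled with the 129S6SvEv/C57BL6 background, and the line had been backcrossed onto C57BL/6. Each array held RNA from the glomeruli of 1 mouse.

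B cells carry an antibody on their surface as the B cell receptor, in which a membrane IgM is held by the signalling pair CD79a and CD79b. When a B cell turns into a plasma cell it secretes the antibody, and the J chain links IgM and IgA subunits into polymers that can be carried across epithelia. Few such cells are found in a healthy glomerulus, and in RNA from bulk glomeruli fewer cells of a type and less RNA per cell cannot be told apart.

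Values are log2 intensities after GCRMA, a procedure that removes the background estimated from the probe sequences and summarizes the probes of a set. The lowest value of the table was 2.20, and a value above log2 4 is called over background here. By this level 8 of the 19 probe sets, from 6 genes, were over background on at least 1 array, 3 were so on all arrays, and 11 never were. The dimmest of these 8 reached 4.27 on its highest array, and the brightest of the other 11 reached 2.91. Levels are compared between mice and not between genes, since probe sets differ in brightness for the same amount of RNA.

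The promoters of Cd79a and Jchain are shown because these genes followed different orders over the mice, described below. Of the 8 genes, 3 had an entry in the RefSeq promoter table (GRCm38.p6), and each run is the reference sequence of the 250 bases before the annotated start, read 5′ to 3′ on the strand of the gene. Cd79a lies on the plus strand and its window is chr7:24897247-24897496. Jchain lies on the minus strand and its window is chr5:88527898-88528147. Capitals mark the letters AGGAAG, a form of the site bound by ETS factors. Shorter and other forms of that site were not searched and are not marked.
Cd79a: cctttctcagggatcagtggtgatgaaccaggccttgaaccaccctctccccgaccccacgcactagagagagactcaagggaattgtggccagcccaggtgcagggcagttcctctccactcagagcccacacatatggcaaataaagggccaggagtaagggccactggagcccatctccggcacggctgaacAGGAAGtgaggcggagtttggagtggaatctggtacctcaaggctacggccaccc
Jchain: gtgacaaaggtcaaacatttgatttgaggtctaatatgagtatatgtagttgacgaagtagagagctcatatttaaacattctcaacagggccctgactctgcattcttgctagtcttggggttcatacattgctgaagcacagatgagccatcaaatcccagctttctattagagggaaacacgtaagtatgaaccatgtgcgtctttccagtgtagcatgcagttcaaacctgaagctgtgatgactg

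Both strands were searched for AGGAAG and for the octamer ATTTGCAT, the letters bound by the POU factors that Pou2af1 assists, and neither motif contains the other. The Cd79a window held AGGAAG once, beginning 55 bases before the start, and no octamer. The Jchain and Pou2af1 windows held neither motif. Among 32851 promoters in the table, 29.5% held AGGAAG and 1.60% the octamer, so the match in Cd79a is a common one and is given as a description.

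The labels were checked first on the targeted gene. Ddn, which encodes dendrin, did not exceed 3.81 on any knockout array and was at least 12.22 on every control array. Over all probe sets, 81 passed a fold change over 1.5 with an unadjusted limma p under 0.05 (0.18% of those tested), 38 higher and 43 lower in knockout glomeruli. Of these, 1, that of Ddn, had a limma p under 0.05 after Benjamini-Hochberg adjustment. The arrays correlated with each other at 0.973 to 0.995, and podocyte transcripts reached 15.31, the Podxl value. Control 2 stood apart from the other arrays by lower myeloid and higher tubule transcripts, with values given beside the gene lists.

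Among the 8 genes, the antibody variable segment Ighv14-2 showed the widest gap between the groups. It encodes part of the antigen-binding end of an antibody heavy chain and lies on chromosome 12 as a V segment. Its values were 2.97, 2.99 and 4.04 in knockout mice 1, 2 and 3, against 4.61, 4.90 and 5.77 in control mice 1, 2 and 3. All knockout values lay below all control values, and the transcript was over background in 1 of 3 knockout and 3 of 3 control mice. The mean was 3.33 ± 0.61 in knockout and 5.09 ± 0.61 in control glomeruli (SD, n = 3 each), a difference of -1.76 (SE 0.48) on the log2 scale, or a 3.38-fold lower GCRMA intensity in knockout.

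Ighv14-2 was the 1 probe set of the 19 that passed the criterion of fold and unadjusted p, beside 0.0953% of all probe sets that passed it in the lower direction. The gene was chosen on this contrast, so nothing is read from that count. Leaving out control 3 moved the difference to -1.42, and leaving out knockout 3 moved it to -2.11. With 16 added to each linear intensity before the log was taken it was -0.94, a setting that compresses differences near the background.

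The constant region of the IgM heavy chain, Ighm, is the part shared by all IgM antibodies and lies on chromosome 12 as well. Its brightest probe set gave 7.14, 6.92 and 7.72 in knockout mice 1, 2 and 3, against 7.59, 7.37 and 8.79 in control mice 1, 2 and 3. The groups overlapped, because knockout 3 was above controls 1 and 2. Control 3 stood above every other mouse. The means were 7.26 ± 0.41 in knockout and 7.92 ± 0.77 in control glomeruli (SD, n = 3 each), with a difference of -0.66 (SE 0.48). Without control 3 the difference was -0.22, and without knockout 3 it was -0.89.

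A further Ighm probe set was near the background, with 3.46, 3.50 and 4.02 in knockout mice 1, 2 and 3 and 3.42, 2.70 and 4.27 in control mice 1, 2 and 3. Here the difference was 0.20 (SE 0.47), opposite in sign to that of the brighter probe set, and it became -0.18 without control 2 and 0.60 without control 3. Both Ighm probe sets were highest in control 3 and, within the knockout group, in knockout 3. The other 9 of the 11 Ighm probe sets stayed between 2.20 and 2.91 on all arrays and spanned under 0.2, so they gave no information on the gene.

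The signalling partners of membrane IgM had the same mouse on top. Cd79b gave 4.94, 4.90 and 5.35 in knockout mice 1, 2 and 3, against 5.58, 5.35 and 6.67 in control mice 1, 2 and 3. The groups met at 5.35, where knockout 3 and control 2 had the same value to 2 decimals. Knockout 3 was the lower beyond those decimals, so Cd79b and Ighv14-2 were the 2 of 19 probe sets whose groups did not overlap. Both were among the 8 over background on at least 1 array. Over all 20132 probe sets over background on at least 1 array, 5.62% had every knockout value below every control value. The Cd79b means were 5.06 ± 0.25 in knockout and 5.86 ± 0.71 in control glomeruli (SD, n = 3 each), and the difference of -0.80 (SE 0.42) was -0.40 without control 3.

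Cd79a was near the background, with 3.83, 3.01 and 4.17 in knockout mice 1, 2 and 3 and 3.85, 3.84 and 5.23 in control mice 1, 2 and 3. It was over background in knockout 3 and control 3 alone, and the groups overlapped. The mean was 3.67 ± 0.59 in knockout and 4.31 ± 0.80 in control glomeruli (SD, n = 3 each), with a difference of -0.64 (SE 0.55). Without control 3 the difference was -0.18, and without knockout 2, the lowest mouse, it was -0.31.

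Ms4a1 encodes CD20, a membrane protein of mature B cells that is absent from plasma cells. Of its 2 probe sets, that with the higher mean gave 3.36, 3.14 and 4.26 in knockout mice 1, 2 and 3, against 4.04, 3.88 and 5.73 in control mice 1, 2 and 3. The groups overlapped through knockout 3, which was above controls 1 and 2, and control 3 again stood above every other mouse. The means were 3.59 ± 0.59 in knockout and 4.55 ± 1.03 in control glomeruli (SD, n = 3 each), and the difference of -0.96 (SE 0.66) was -0.37 without control 3.

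The second Ms4a1 probe set gave 2.78, 3.20 and 4.15 in knockout mice 1, 2 and 3 and 3.95, 4.23 and 5.75 in control mice 1, 2 and 3. Control 3 was again the highest mouse, and knockout 3 was above control 1. Its difference of -1.27 (SE 0.66) was -0.72 without control 3 and -1.65 without knockout 3.

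**Figure D1:**
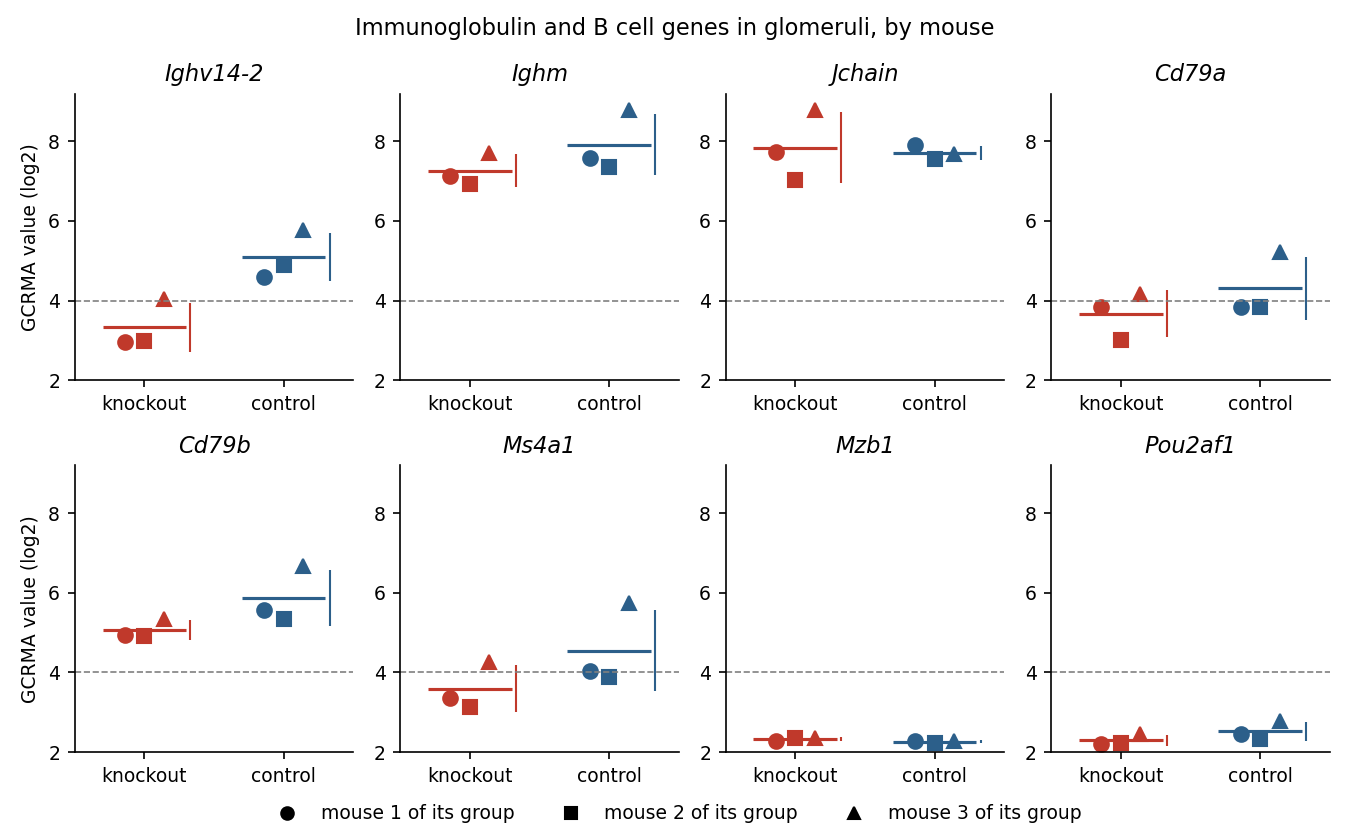
GCRMA values (log2) of the 8 genes in each mouse, knockout left and control right, with 1 probe set a gene (the one with the highest mean), a horizontal line at the group mean, a vertical bar of 1 SD to either side and a dashed line at log2 4, the level called background. Control 3 (triangle, right) is highest for Ighv14-2, Ighm, Cd79a, Cd79b and Ms4a1, knockout 3 (triangle, left) is highest for Jchain, and Mzb1 and Pou2af1 stay below the dashed line.

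Jchain encodes the joining chain of polymeric IgM and IgA and is made above all by cells that secrete antibody. Its values were 7.74, 7.02 and 8.78 in knockout mice 1, 2 and 3, against 7.91, 7.56 and 7.69 in control mice 1, 2 and 3. Knockout mice held both the highest and the lowest value, and the control values lay close together between them. The mean was 7.84 ± 0.88 in knockout and 7.72 ± 0.18 in control glomeruli (SD, n = 3 each), a difference of 0.13 (SE 0.50). It turned to -0.34 without knockout 3 and grew to 0.54 without knockout 2.

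Mzb1, a chaperone of the endoplasmic reticulum that assists antibody assembly, lay between 2.22 and 2.36 on all arrays. Pou2af1, a coactivator that works with octamer-binding POU factors in B cells, lay between 2.21 and 2.79. Neither was over background in any mouse, and no fold is given for them. A further 4 probe sets list a member gene together with other genes, and they stayed at or below 2.28. Those that list Ighv14-2 also list Ighg3 and Ighm. They were near the lowest value of the table in both groups, so the Ighv14-2 difference rests on the probe set described above.

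Over the 8 probe sets over background, which read Ighm and Ms4a1 through more than 1 probe set, the median difference was -0.73 (log2). It was 0.01 over the 20132 probe sets over background. The genes were chosen with this contrast in view, so nothing is read from that gap. Without control 3 the median of the 8 was -0.30. Leaving out each of the other arrays, and control 3, in turn gave values between -0.996 and -0.296. The plot of differences with and without 1 array shows each probe set. Without control 3 the differences of the brightest Ighm probe set, Cd79a, Cd79b and both Ms4a1 probe sets shrank by more than 1.5 times, those of Ighv14-2 and Jchain did not, and that of the second Ighm probe set was larger, at 0.60.

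**Figure D2:**
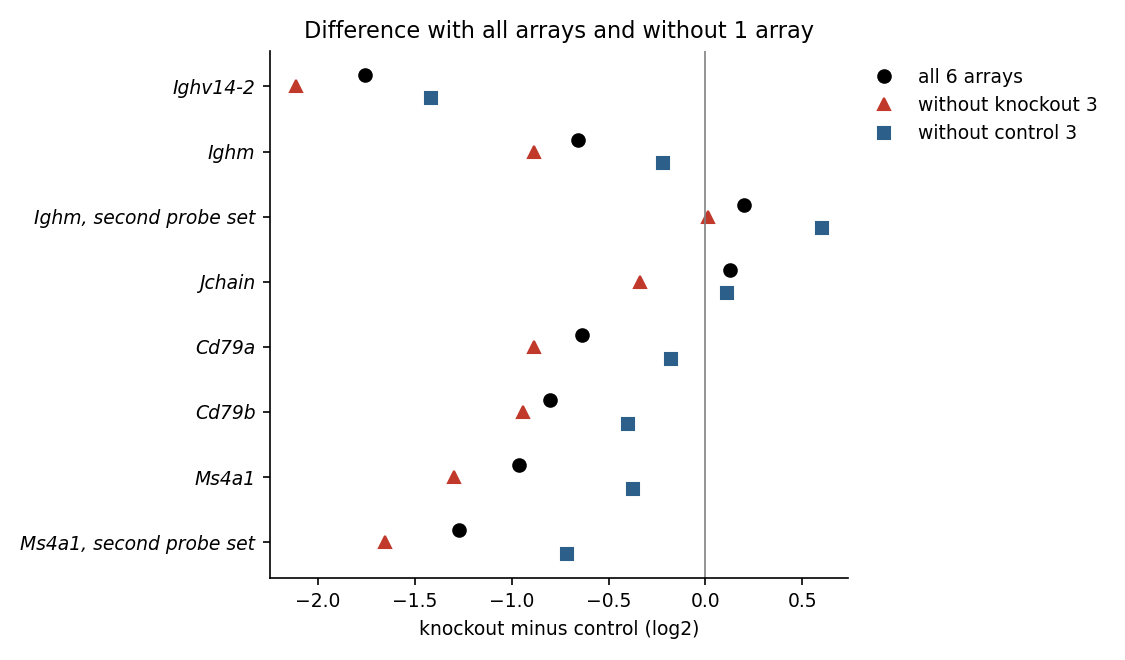
Difference in GCRMA value (log2, knockout minus control) of the 8 probe sets over background, with all 6 arrays (circle), without knockout 3 (triangle) and without control 3 (square). The squares of the brightest Ighm probe set, Cd79a, Cd79b and both Ms4a1 probe sets lie nearer to 0 than the circles, that of the second Ighm probe set lies farther from 0 (0.60), and Ighv14-2 keeps -1.42 without control 3.

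The spread over mice was wide for these genes. The 8 probe sets spanned 1.57 (the second Ighm probe set) to 2.97 (the second Ms4a1 probe set) between their lowest and highest mouse, while the median span over all 20132 probe sets over background was 0.35 and its 95th percentile 1.24. In 7 of the 8 the highest value was in control 3, which held the highest value in 17.1% of all probe sets over background. Jchain was the exception.

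Control 3 was therefore set against the mean of the other 5 mice. Ms4a1 was 1.99 higher in control 3, Ighv14-2 1.87, Cd79a 1.49, Ighm 1.45 and Cd79b 1.44 on the log2 scale, while the Jchain difference was -0.11. In knockout 3 it was Jchain that stood out. Jchain was 1.20 higher in knockout 3 than the mean of the other 5 mice, while Ms4a1 was 0.23 higher, Cd79a 0.21, Ighm 0.16, and the differences of Cd79b and Ighv14-2 were -0.14 and -0.20. Knockout 2 was below the mean of the other 5 mice for each of the 6 genes, with -0.92 for Jchain and -1.17 for Cd79a.

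Other antibody genes were read on the same arrays. A further 36 probe sets read immunoglobulin genes and list none of the 8, of which 9 were over background on at least 1 array and 27 were not. Of the 9, 7 were highest in knockout 3 and 1 in control 3. Over all probe sets over background, 15.6% were highest in knockout 3 and 17.1% in control 3. The 7 were 3 probe sets of Igha, 1 of Igkv8-30 and 3 that list the same kappa genes, Igkv8-30 among them. They are thus not 7 separate transcripts. Igha, the constant region of the IgA heavy chain, gave 10.46, 9.96 and 11.53 in knockout mice 1, 2 and 3 and 10.74, 10.57 and 10.73 in control mice 1, 2 and 3. As with Jchain, knockout mice held both ends of the range and the control mice lay close together between them. The Igha difference was -0.03 (SE 0.45, limma adjusted p = 1), and its 3 probe sets were all highest in knockout 3.

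The kappa light chain segment Igkv8-30 had 9.28, 8.83 and 10.28 in knockout mice 1, 2 and 3 and 9.66, 9.40 and 9.99 in control mice 1, 2 and 3, a difference of -0.22 (SE 0.44). It too was highest in knockout 3 and lowest in knockout 2, though control 3 was the highest control. Kappa chains pair with IgM and IgA heavy chains alike. The 3 probe sets that read several kappa genes differed by -0.21 to -0.04 between knockout and control and were highest in knockout 3.

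**Figure D3:**
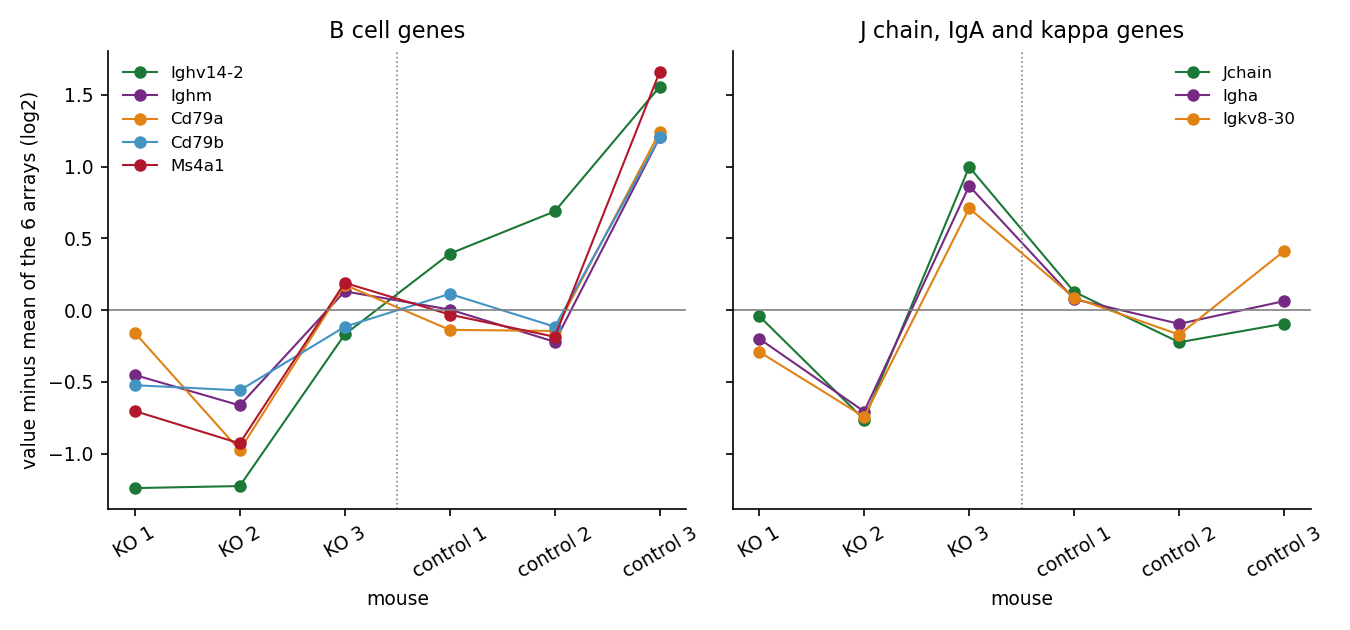
Deviation of each mouse from the mean of the 6 arrays (log2), with lines that only join the points of 1 gene, for Ighv14-2, Ighm, Cd79a, Cd79b and Ms4a1 (left) and for Jchain, Igha and Igkv8-30 (right). The B cell genes peak in control 3, where Jchain differs by -0.11 from the mean of the other 5 mice, and Jchain, Igha and Igkv8-30 peak in knockout 3.

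Correlations over the 6 mice were computed for the 28 pairs among Ighv14-2, Ighm, Jchain, Cd79a, Cd79b, Ms4a1, Igha and Igkv8-30, with exact two-sided permutation tests and Benjamini-Hochberg adjustment over the 28. The genes were selected with these arrays in view, so the p-values describe these mice. Ighm and Ms4a1 correlated most closely, with Pearson r = 0.997 (exact permutation p = 0.00139, adjusted 0.0130) and Spearman rho = 1 (exact permutation p = 0.00278, adjusted 0.0259). Without knockout 2 and control 3, the mice farthest from the Ighm median, r was 0.975, and r of the deviations from the genotype means was 0.997, so the relation was also present within the groups.

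Ighm and Cd79a gave r = 0.959 (exact permutation p = 0.00139, adjusted 0.0130) and rho = 1 (exact permutation p = 0.00278, adjusted 0.0259), with r = 0.723 without those mice. Ighm and Cd79b gave r = 0.977 (exact permutation p = 0.00833, adjusted 0.0340) and rho = 0.829 (exact permutation p = 0.0583, adjusted 0.109), with r = 0.789 without those mice. Between the signalling partners Cd79a and Cd79b, r was 0.907 (exact permutation p = 0.0194, adjusted 0.0544) and rho 0.829 (exact permutation p = 0.0583, adjusted 0.109), but r fell to 0.159 without knockout 2 and control 3, so that relation rests on those mice. Over the 6 mice Ighv14-2 was closest to Cd79b among these genes, with r = 0.896 (exact permutation p = 0.00972, adjusted 0.0340), rho = 0.886 (exact permutation p = 0.0333, adjusted 0.109) and r = 0.866 without knockout 1 and control 3. The groups did not overlap for either gene, so that r in part reads the gap between them. For the deviations from the genotype means, r with Ighv14-2 was 0.925 for Ms4a1, 0.896 for Ighm, 0.850 for Cd79a and 0.842 for Cd79b.

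Jchain correlated with Igha at r = 0.977 (exact permutation p = 0.00972, adjusted 0.0340) and rho = 0.829 (exact permutation p = 0.0583, adjusted 0.109). Without knockout 2 and knockout 3 that r was 0.421, so the relation rests on the highest and the lowest Jchain value. Igha also gave rho = 0.829 with each of Ighm, Cd79a and Ms4a1, 0.6 with Cd79b and 0.429 with Ighv14-2. Igkv8-30 gave rho = 0.714 with Jchain, 0.943 with each of Ighm, Cd79a and Ms4a1, 0.657 with Cd79b and 0.543 with Ighv14-2. By rank, Igha and Igkv8-30 thus followed Jchain no more closely than Ighm, Cd79a and Ms4a1. With Ighm, Jchain gave r = 0.313 (exact permutation p = 0.481, adjusted 0.551) and rho = 0.543 (exact permutation p = 0.297, adjusted 0.333). That pair had r = 0.755 without knockout 2 and control 3. Knockout 2 was the lowest mouse for both genes (6.92 for Ighm, 7.02 for Jchain). Control 3 was the highest for Ighm (8.79) but not for Jchain (7.69). The r without control 3 alone was not computed.

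The probe sets with profiles most like 3 of the genes were then ranked by Pearson r over the 6 mice, among 1215 single-gene probe sets with a mean of at least log2 4 and a span of at least 1. Because the ranking picks the highest values, no test is given. For Ighm the 5 nearest genes were Ms4a1 (r = 0.997), Cd79b (0.977), the neutral amino acid transporter Slc1a5 (0.968), Cyria (0.956) and the chemokine receptor Cxcr4 (0.956). Cxcr4 had 7.85, 7.22 and 8.28 in knockout mice 1, 2 and 3 and 7.90, 7.90 and 8.99 in control mice 1, 2 and 3, again highest in control 3.

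For Jchain the nearest genes were Igha (r = 0.977), Zfp119b (0.964), Lox, a lysyl oxidase that crosslinks collagen (0.930), Ms4a4c (0.869) and Igkv8-30 (0.869). Lox had 5.46, 4.24 and 6.76 in knockout mice 1, 2 and 3 and 4.99, 4.57 and 5.46 in control mice 1, 2 and 3, with the same highest and lowest mouse as Jchain. For Ighv14-2 the nearest were Lepr, the leptin receptor (r = 0.957), the Rac exchange factor Tiam1 (0.944), Serhl (0.940), Ms4a1 through its other probe set (0.939) and Cpne8 (0.899). Tiam1 gave 8.25, 8.37 and 8.48 in knockout mice 1, 2 and 3 and 9.11, 8.89 and 9.37 in control mice 1, 2 and 3. Lepr, Tiam1, Serhl and Cpne8 each had every knockout value below every control value, as Ighv14-2 did. Ighv14-2 was chosen with that gap in view, so these r values in part read the gap again and do not show a link to B cells.

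Gene lists around the B cell were then read on the same arrays, with 1 probe set a gene. Of 27 other B cell genes measured, 9 were over background on at least 1 array, 0 passed the criterion in either direction, and their median difference was -0.04. Of these 9, 7 were highest in control 3, like 5 of the 6 detected genes of the main group. But 5 of the 9 were lowest in control 2, against 0 of those 6 and 18 of the 19 myeloid genes given below. Over all probe sets over background, 19.8% were lowest in control 2. Fcmr, the receptor for the Fc part of IgM, had 4.24, 4.55 and 4.59 in knockout mice 1, 2 and 3 and 4.63, 4.56 and 5.31 in control mice 1, 2 and 3, a difference of -0.37 (SE 0.25). Cd72, an inhibitory coreceptor of B cells, had 6.69, 6.34 and 6.44 in knockout mice 1, 2 and 3 and 6.44, 4.18 and 7.26 in control mice 1, 2 and 3, a difference of 0.53 (SE 0.89).

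Fcmr and Cd72 thus both had their highest value in control 3, and Cd72 was also lowest in control 2. Bank1, a B cell scaffold protein, differed by 0.31 (SE 0.68) and Cd40, a costimulatory receptor, by -0.20 (SE 0.33), both also highest in control 3. Pax5, the factor that maintains B cell identity, and Cr2, a complement receptor of B cells, were at 2.20 or 2.21 in every mouse. Of the same list, Ebf1 lay between 10.24 and 10.56 (difference -0.12, SE 0.10). Bach2 lay between 6.37 and 6.90 (difference -0.04, SE 0.18). Which cells these transcripts came from was not tested.

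Of 14 plasma cell genes measured, 10 were over background, 0 passed the criterion in either direction, and the median difference was 0.08. Xbp1, a factor for secretory capacity, differed by 0.35 (SE 0.18), the chaperone Creld2 by 0.44 (SE 0.23), Slamf7 by 0.51 (SE 0.59) and the syndecan Sdc1 by -0.35 (SE 0.19), and each of these is also expressed outside plasma cells. Prdm1, of the same list, was over background on all arrays, between 7.52 and 8.82, and differed by -0.04 (SE 0.40). Irf4, Tnfrsf17, which encodes the survival receptor BCMA, and Derl3 were at 2.20 on all arrays, so their probe sets gave no information. Of 17 other immunoglobulin genes, 4 were over background, with a median difference of -0.09 and 0 past the criterion in either direction. Beside Igha and Igkv8-30 these included Ighg3, an IgG constant region that stayed between 3.70 and 4.24.

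Receptors and signals that B cells and antibodies meet in tissue gave no call either. Of 9 Fc receptor genes, 7 were over background with a median difference of 0.50 and 0 past the criterion in either direction, and Fcgr4, an activating receptor for IgG, had 7.76, 7.76 and 8.34 in knockout mice 1, 2 and 3 and 6.99, 5.49 and 8.11 in control mice 1, 2 and 3 (difference 1.09, SE 0.75). Of 7 genes for B cell attraction and survival, 4 were over background and 0 passed. Cxcl13, the chemokine that draws B cells into follicles, had 13.06, 13.32 and 13.30 in knockout mice 1, 2 and 3 and 13.35, 12.50 and 13.40 in control mice 1, 2 and 3, a difference of 0.14 (SE 0.29). Fcgr4 and Cxcl13 were both lowest in control 2, and the Fc receptor median was 0.09 without that mouse.

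Of 8 MHC class II genes, which B cells share with macrophages and dendritic cells, 7 were over background, all 7 were highest in control 3, the median difference was 0.34 and 0 passed. H2-DMb2 had 4.15, 3.96 and 4.0 in knockout mice 1, 2 and 3 and 4.12, 3.98 and 5.54 in control mice 1, 2 and 3, so control 3 stood above all other mice, as for Ighm. Its difference was -0.51 (SE 0.48). Of the 7, 5 were lowest in control 2, and H2-Eb1 differed by 0.42 (SE 0.62). Without control 2 the class II median was -0.20.

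Markers of other cells were read beside these. All 19 myeloid genes were over background, 18 of them were lowest in control 2 and 11 highest in control 3, and their median deviation from the mean of the 6 arrays was 0.31, -0.10 and 0.72 in knockout mice 1, 2 and 3 and 0.31, -1.62 and 0.75 in control mice 1, 2 and 3. For the 6 detected B cell lineage genes that deviation was -0.49, -0.85 and 0.15 in knockout mice 1, 2 and 3 and 0.06, -0.17 and 1.22 in control mice 1, 2 and 3. None of the 6, each read by its probe set of highest mean, was lowest in control 2, though the second Ighm probe set was (2.70). Tubule genes (9 of 11 over background) deviated by 1.45 in control 2 and by -0.43 to -0.15 in the other mice. The myeloid median difference was 0.65 with all mice and -0.18 without control 2, and that of the tubule genes was -0.33 with all mice and 0.22 without control 2.

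The T and NK cell list had 1 of 13 genes over background, and the T cell receptor chains Cd3e and Cd3g were at 2.20 in all mice. Blood cell genes (3 of 8 over background) had a median difference of 0.54, and podocyte genes (7 of 7) one of 0.10. Glomerular endothelial genes (10 of 10) had a median difference of -0.17, with 1 gene, Sost, past the criterion in the higher direction (0.70, SE 0.14). An unadjusted limma p under 0.05 was found for 5 endothelial genes and 1 tubule gene (Aqp1). It was found for 0 in each of the other lists beside the 8 genes, and for 1636 of all 45101 probe sets. Of the 5, Sost was higher in knockout, while Emcn (-0.08), Flt1 (-0.18), Kdr (-0.22) and Tek (-0.18) were lower, as was Aqp1 (-0.33). SAM, run as an alternative test at the same fold and p, called Sost and no other list gene, and limma gave an adjusted p under 0.05 to 0 genes of the lists. The part of myeloid, tubule or blood content in the values of the B cell genes was not tested.

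**Figure D4:**
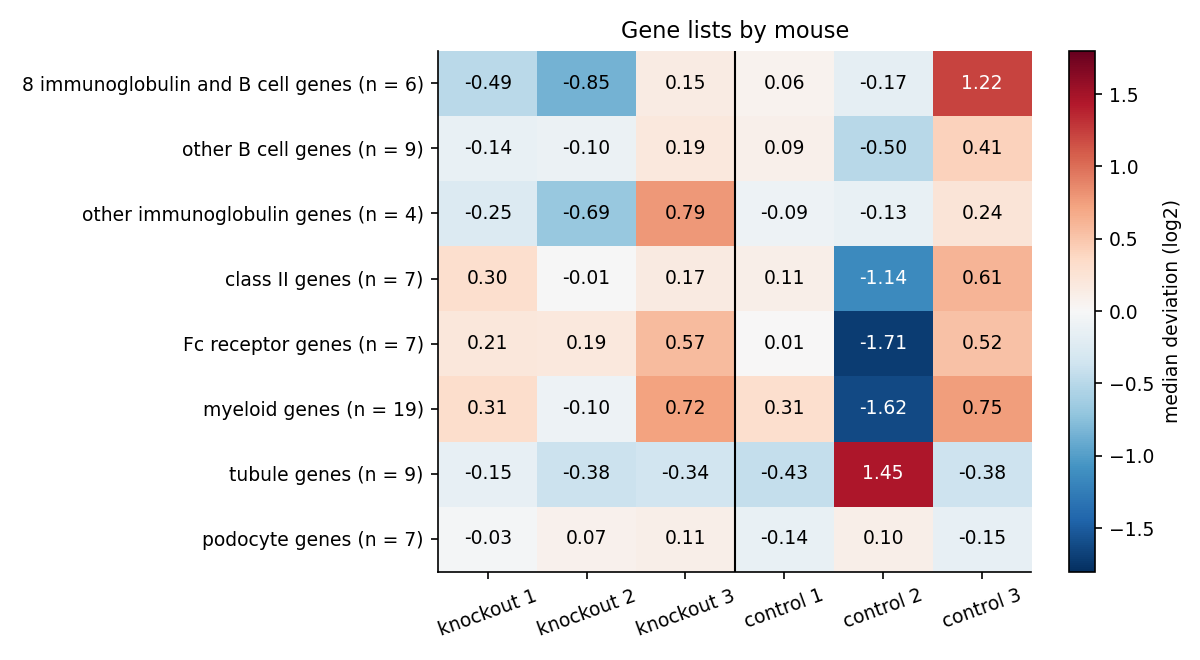
Median deviation of each gene list from its mean over the 6 arrays (log2, colour and printed value) in each mouse, knockout mice left of the line and control mice right, over the n genes of each list that were over background on at least 1 array. The B cell lineage row is highest in control 3 (1.22), and the myeloid row is lowest in control 2 (-1.62).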

How the data were processed

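Glomerular RNA of 3 knockout and 3 control mice was hybridized to 1 array each. The deposited values are log2 intensities that the authors normalized with GCRMA 2.30.0 (version per the labels), with all 6 columns used; arrays hold no read depth, so 3 mice a group limit the precision. Probe sets were named from the platform annotation, updated through RefSeq, and those listing several genes were not counted as members. All 45101 probe sets were fitted with limma 3.58.1 in R 4.3.3 (lmFit and eBayes, two-sided), without a filter, after a test on simulated data. The methods name SAM, which was run from its published formulas as an alternative since the original package was not used here. A probe set was called at a fold over 1.5 with an unadjusted limma p under 0.05. The study's results give the same fold and unadjusted p as filters, with SAM as the test named in its methods. Each SE is that of the fit.

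The members and gene lists were chosen with earlier results of these data known. Named genes were all members, each list gene past the criterion, up to 4 list genes of mean at least log2 4 with the largest differences, the 5 genes most correlated with Ighv14-2, Ighm and Jchain, Ddn, and single markers of a cell type. Motifs were picked during the analysis. In each list a gene was read by its probe set of highest mean. Alternatives were other variance models, filters, normalizations, an offset, array weights, a replicate block and each array left out. The authors' own comparison values were not used.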

Additional observations from a re-analysis of the deposited data

How the results depend on the processing

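The count of probe sets past fold and p was 81. It was 141 among probe sets spanning over 0.1, 106 with SAM and 104 with array weights, and leaving out 1 array gave 78 to 140, with 140 without control 2. With the replicate number as a block (replicate block) it was 64. The median difference of the immunoglobulin and B cell probe sets was -0.73 with or without that block. This was fixed by the design, since each number holds a knockout and a control mouse. The numbers were not taken to pair mice, as deviations of same-numbered mice correlated at 0.095, 0.352 and 0.248, although each array correlated best with its own number, a hint from the data. That median lay between -0.996 and -0.296 with 1 array left out, at -0.30 without control 3, and was -0.57 with an offset of 16. Of 110 differences of the member probe sets under the alternatives, 108 kept their sign. Some of these could not change, since the filters, the other variance model and the block leave a difference of group means as it is. The sign changed for the second Ighm probe set, 0.20 with all arrays and -0.18 without control 2. It also changed for Jchain, 0.13 with all arrays and -0.34 without knockout 3. The Ighv14-2 difference of -1.76 was -0.94 with the offset. For each of these changes the cause was not tested. Knockout values near the background limit the Ighv14-2 fold, and Mzb1, Pou2af1 and 9 Ighm probe sets could not be read at this signal.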
